A study of Homo sapiens with 9 samples.

Results

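NRF2 is the transcription factor encoded by NFE2L2, and the genes described here are NFE2L2, its repressor KEAP1 and 7 antioxidant targets: NQO1, HMOX1, GCLM, GCLC, TXNRD1, SRXN1 and GSR. They are named by their known roles, not by a threshold on measured values, though with earlier results of these data in view, and make up 9 of the 9453 genes with values in the deposited table. All 9 had values, on 14 of the 19 probe sets that the annotation assigns to 1 of them alone. The other 5 (1 of GCLC, 1 of GCLM, 2 of NFE2L2 and 1 of TXNRD1) had no values, and a probe set that names NFE2L2 together with another gene was not used. RNA came from HT1080, an established human fibrosarcoma line, and was measured on 9 Affymetrix arrays. Of these, 3 held RNA of untreated cells without methylthioadenosine phosphorylase (MTAP-), 3 of untreated cells with it (MTAP+), and 3 of MTAP+ cells given 10 µM MT-DADMe-ImmA for 48 hours. MTAP breaks down methylthioadenosine, which is left over when polyamines are made, and MT-DADMe-ImmA is a transition state analogue inhibitor of the enzyme. All arrays share the 1 cell line and growth medium; the labels do not say how the MTAP+ cells were made or whether they are 1 clone.

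NRF2 is made continuously, and KEAP1, an adaptor of a CUL3 ubiquitin ligase, marks it for destruction. Electrophiles and oxidants modify cysteines of KEAP1, after which NRF2 accumulates, pairs with a small MAF protein and binds antioxidant response elements, so its activity is set largely at the level of the protein, which expression arrays do not measure. Its targets include enzymes that detoxify quinones, make glutathione, keep thioredoxin reduced and break down heme.

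The core letters of the antioxidant response element, TGACNNNGC, were looked for on both strands of the 250 bases before each gene's start in RefSeq (GRCh38.p14). Windows of 7 members are reported, with 10 promoters in all. None is reported for HMOX1 or GSR, so nothing is said of their promoters. The letters were found in 4 promoters of 3 genes (KEAP1, GCLM and TXNRD1), and in 10.9% of the 35116 promoters in the table. Where an A had to follow, as in the fuller form of the element, the share was 2.59%. The windows of GCLM and NQO1 are shown because these genes had the largest differences on the arrays, that of KEAP1 because it holds 2 matches, and the surroundings of the TXNRD1 matches for comparison. All are printed 5′ to 3′ on the gene's own strand, with matches in capitals.
GCLM (chr1:93909431-93909680, minus strand): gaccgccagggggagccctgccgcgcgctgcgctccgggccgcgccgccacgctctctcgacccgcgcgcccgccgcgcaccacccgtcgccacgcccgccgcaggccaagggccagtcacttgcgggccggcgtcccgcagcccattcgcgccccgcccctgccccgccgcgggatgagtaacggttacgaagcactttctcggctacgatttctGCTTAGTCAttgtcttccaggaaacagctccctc
NQO1 (chr16:69726561-69726810, minus strand): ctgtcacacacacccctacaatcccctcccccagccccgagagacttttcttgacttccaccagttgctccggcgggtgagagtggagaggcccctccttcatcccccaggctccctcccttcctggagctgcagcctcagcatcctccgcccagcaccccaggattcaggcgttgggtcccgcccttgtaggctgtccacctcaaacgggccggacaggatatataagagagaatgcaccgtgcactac
KEAP1 (chr19:10502772-10503021, minus strand): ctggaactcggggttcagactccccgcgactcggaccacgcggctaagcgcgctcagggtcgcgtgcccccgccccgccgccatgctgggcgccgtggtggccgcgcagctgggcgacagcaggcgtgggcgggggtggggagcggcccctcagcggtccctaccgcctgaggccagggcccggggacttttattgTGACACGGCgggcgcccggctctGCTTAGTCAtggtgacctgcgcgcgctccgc
TXNRD1 (from the window chr12:104215529-104215778, plus strand): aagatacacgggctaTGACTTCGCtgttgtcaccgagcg
TXNRD1 (from the window chr12:104286782-104287031, plus strand): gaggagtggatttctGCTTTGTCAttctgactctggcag
Read on its opposite strand, the GCLM match is TGACTAAGC and lies -34 to -26 bases from the gene's start. The same 9 letters stand at -31 to -23 in the KEAP1 window, beside TGACACGGC at -54 to -46. The TXNRD1 matches read TGACTTCGC and TGACAAAGC. The NQO1 window holds no match, nor do those of NFE2L2, GCLC and SRXN1; this says only that these letters are not in these 250 bases.

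MTAP was read first, as a check of the labels. Its probe set 216685_s_at lay at log2 3.96 ± 0.10 in MTAP- cells (SD, n = 3), 11.63 ± 0.07 in MTAP+ cells and 11.39 ± 0.14 with inhibitor. Of 8 mesenchymal markers 6 had values, and of the 15 epithelial, blood and endothelial markers 0 had. Arrays correlated over probe sets at 0.956 to 0.988 within groups and 0.924 to 0.981 between them. A sign of RNA integrity was the signal of the 5′ ACTB control probes minus that of the 3′ ones. It was -2.50 ± 0.90 in MTAP- cells, -1.43 ± 0.45 in MTAP+ cells and -1.64 ± 0.66 with inhibitor. Its mean thus moved with MTAP status, but the groups overlapped. Replicates 1 to 3 gave -1.81, -2.17 and -3.52 in MTAP- cells and -1.33, -1.03 and -1.92 in MTAP+ cells. With inhibitor they gave -1.93, -0.88 and -2.09. The design text calls the arrays biological replicates, and p-values measure the spread between them. In bulk RNA, fewer cells expressing a gene and less RNA per cell cannot be told apart.

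In MTAP+ cells NQO1 was higher than in MTAP- cells, while HMOX1 and GCLM were lower. With inhibitor NQO1 was lower than in untreated MTAP+ cells, and no other member passed the test. Differences were tested with limma over 17466 probe sets, without pairing the arrays. A probe set is called where its Benjamini-Hochberg adjusted p is under 0.05. Between MTAP+ and MTAP- cells 4 of the 14 member probe sets (28.6%) were called, 2 higher and 2 lower, where 14.8% of all probe sets were (10.0% higher, 4.78% lower). The arrays of the 2 groups did not overlap for 7 of 14, against 33.7% of all. Between inhibitor-treated and untreated MTAP+ cells 3 of 14 (21.4%) were called, all lower and all of NQO1, against 10.3% of all (4.86% higher, 5.48% lower), and 7 of 14 did not overlap, against 33.2%. Between inhibitor-treated and MTAP- cells 3 of 14 were called, all lower, against 30.7% of all (17.4% higher, 13.3% lower), and 6 of 14 did not overlap, against 50.6%. With 1 probe set a gene, that of highest mean, 3, 1 and 2 of the 9 genes were called, against 15.1%, 10.6% and 32.2% of all genes. The 3 comparisons share arrays and are not independent of each other.

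The median member difference was 0.04 between MTAP+ and MTAP- cells, the same as over all probe sets. It was -0.29 with inhibitor against MTAP+ cells, where the median of all was -0.02, and -0.21 against MTAP- cells, where it was 0.03. Of the calls between MTAP+ and MTAP- cells over all probe sets 67.7% were higher, a share that fell to 50.1% when each array was centred on its median, but the member calls stayed 2 higher and 2 lower. With the ACTB 5′ minus 3′ difference as a covariate, limma called 0 of the 14 member probe sets in that comparison, against 4.87% of all. Of the 14, 13 kept their sign and 5 had an unadjusted p under 0.05. No share of all probe sets or genes at an unadjusted p under 0.05 is given, here or below. Unadjusted counts therefore cannot be set against the shares called.

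**Figure D1:**
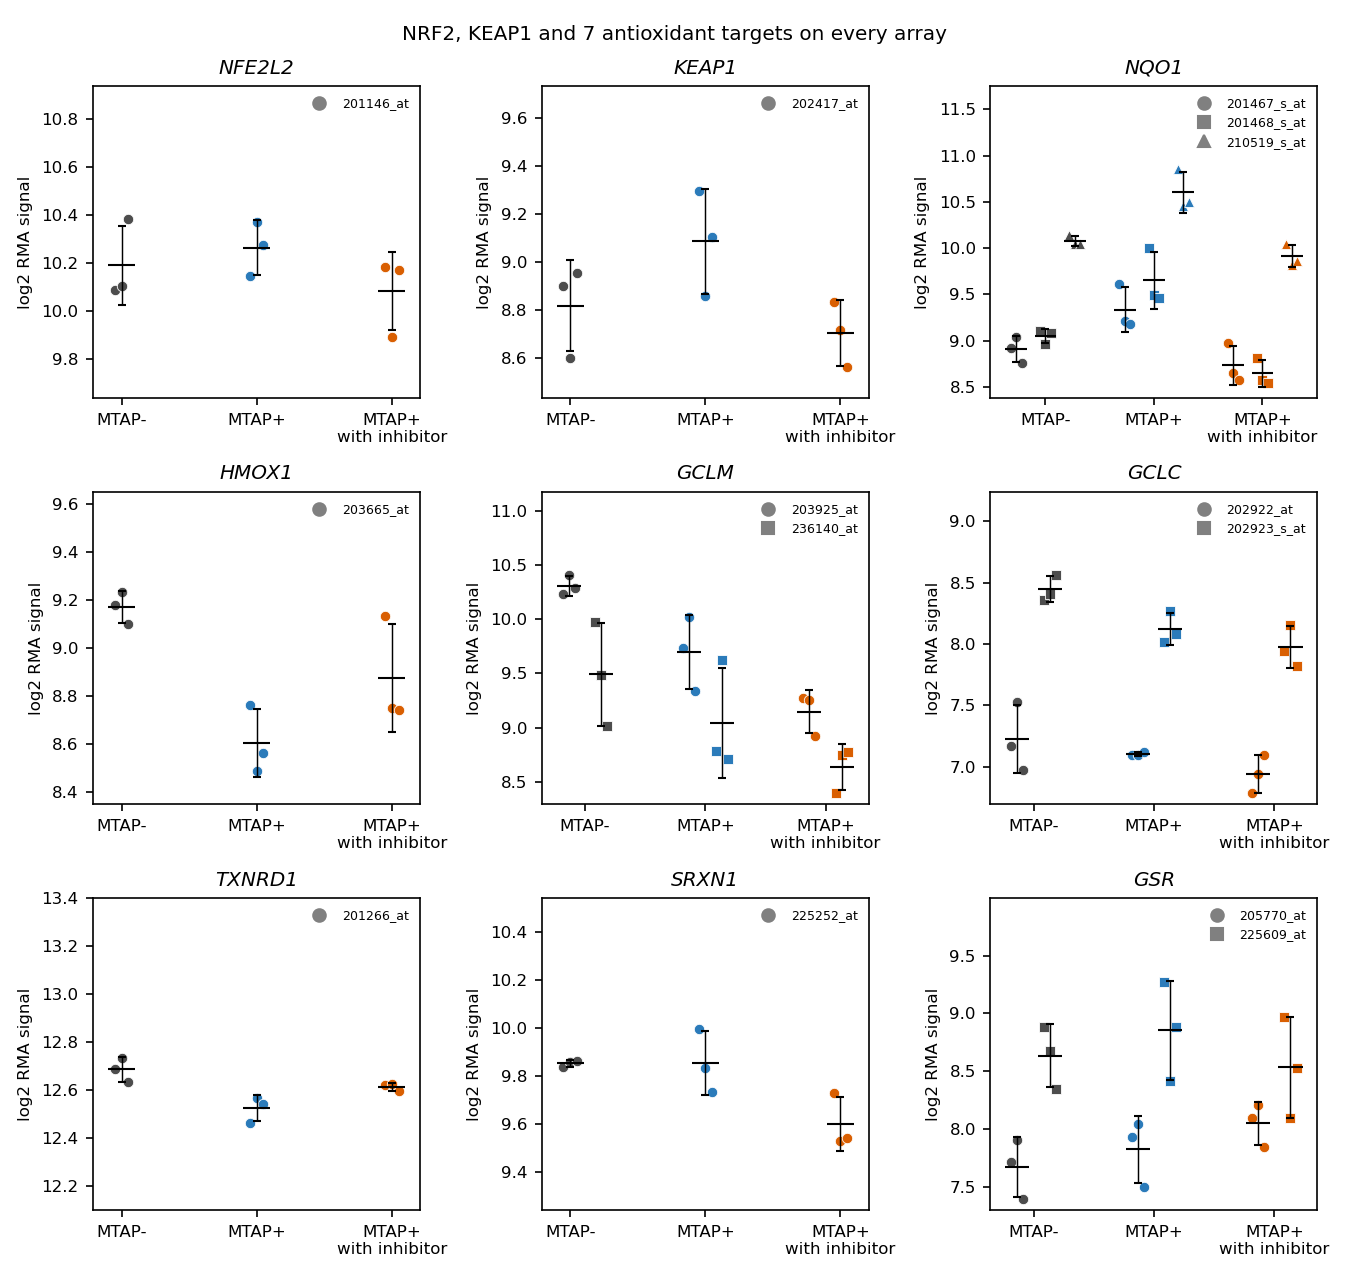
Deposited log2 signal of the 9 genes on each of the 9 arrays; each panel is a gene, each marker shape a probe set, colours are the 3 groups, and bars are the mean ± SD of 3 arrays. NQO1 lies highest in MTAP+ cells on each of its 3 probe sets, and GCLM lowest with inhibitor.

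Neither regulator was called in any comparison. NFE2L2, the gene of NRF2 itself, had log2 signals of 10.09, 10.10 and 10.38 in MTAP- cells, 10.14, 10.37 and 10.27 in MTAP+ cells and 10.18, 9.89 and 10.17 with inhibitor (replicates 1 to 3, as throughout). The groups overlapped. MTAP+ cells differed from MTAP- cells by 0.07 (95% interval -0.21 to 0.36), inhibitor-treated from MTAP+ cells by -0.18 (-0.47 to 0.11) and from MTAP- cells by -0.11 (-0.39 to 0.18). None was called (adjusted p = 0.739, 0.403 and 0.557), and each interval reaches to both sides of no difference, so neither direction is settled.

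KEAP1, which binds NRF2 for degradation, lay at 8.90, 8.60 and 8.95 in MTAP- cells, at 9.30, 8.86 and 9.11 in MTAP+ cells and at 8.83, 8.72 and 8.56 with inhibitor. Every inhibitor-treated array was below every MTAP+ array, while the MTAP- arrays overlapped both groups. The difference with inhibitor against MTAP+ cells was -0.38 ± 0.15 (SE) and missed the threshold (adjusted p = 0.127; 0.0445 with array weights). MTAP+ cells exceeded MTAP- cells by 0.27 ± 0.15 (adjusted p = 0.237). KEAP1 was higher in MTAP+ than in MTAP- cells in 3 of 3 same-numbered pairs of arrays, and lower with inhibitor in 3 of 3.

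NQO1, a quinone reductase that uses NADH or NADPH, was read by 3 probe sets, and all were highest in MTAP+ cells. On 210519_s_at, the brightest, the log2 signals were 10.14, 10.04 and 10.05 in MTAP- cells, 10.86, 10.46 and 10.49 in MTAP+ cells, and 10.05, 9.82 and 9.87 with inhibitor. All MTAP+ arrays stood above all others, and the other groups overlapped. On 201468_s_at the signals were 9.10, 8.96 and 9.09, then 10.01, 9.50 and 9.46, then 8.82, 8.58 and 8.55, so the 3 groups did not overlap at all. On 201467_s_at the group means were 8.91 ± 0.14, 9.34 ± 0.24 and 8.73 ± 0.21 (SD, n = 3). Replicate 1 was the highest MTAP+ array and the highest inhibitor-treated array on each of the probe sets.

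Against MTAP- cells, NQO1 was higher in MTAP+ cells by 0.53 ± 0.13 on 210519_s_at (SE, 1.44-fold, adjusted p = 0.0245) and by 0.60 ± 0.15 on 201468_s_at (1.52-fold, adjusted p = 0.0305). On 201467_s_at the difference of 0.43 ± 0.15 missed the threshold (adjusted p = 0.0931) and passed it with the replicate number as a block (adjusted p = 0.0375). With inhibitor NQO1 was lower than in MTAP+ cells on all 3, by 2.01-fold on 201468_s_at (-1.01 ± 0.15, adjusted p = 0.00572), 1.61-fold on 210519_s_at (-0.69 ± 0.13, adjusted p = 0.0114) and 1.52-fold on 201467_s_at (-0.60 ± 0.15, adjusted p = 0.0385). Each probe set showed both directions in 3 of 3 same-numbered pairs. Inhibitor-treated and MTAP- cells, the lower neighbours in the order of levels, did not differ beyond the test: 201468_s_at gave -0.40 ± 0.15 (adjusted p = 0.0761), 210519_s_at -0.17 (adjusted p = 0.350) and 201467_s_at -0.18 (adjusted p = 0.420). The 3 probe sets read 1 gene and are no replicates of each other.

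The fall of 201468_s_at with inhibitor stayed called with any 1 array left out. That of 210519_s_at was lost without inhibitor-treated replicate 3 (adjusted p = 0.0581), and that of 201467_s_at without MTAP- replicate 1, MTAP+ replicates 1 or 2 or inhibitor-treated replicates 2 or 3 (0.0523 to 0.153). The rise in MTAP+ cells was lost on 201468_s_at without any 1 of the MTAP- arrays or MTAP+ replicate 1 (0.0596 to 0.0906), and on 210519_s_at without MTAP- replicates 2 or 3 or MTAP+ replicate 1 (0.0585 to 0.0727). With the ACTB covariate the rise on these probe sets was 0.61 and 0.53, with adjusted p of 0.139 and 0.123, and the fall on 201467_s_at had an adjusted p of 0.0581. Between inhibitor-treated and MTAP- cells, 201468_s_at became called without MTAP+ replicate 1 (adjusted p = 0.0227) and when arrays were centred, renormalised by quantiles, weighted or blocked, or only these groups were fitted (0.0269 to 0.0484). When only the 2 groups compared were fitted, the rise had an adjusted p of 0.0687 on 201468_s_at and 0.0629 on 210519_s_at, and the fall on 201467_s_at one of 0.0718.

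HMOX1, the inducible enzyme that opens the heme ring, was lower in MTAP+ than in MTAP- cells. Its signals were 9.18, 9.23 and 9.10 in MTAP- cells, 8.76, 8.49 and 8.56 in MTAP+ cells and 9.13, 8.75 and 8.74 with inhibitor. The MTAP- arrays all lay above the MTAP+ arrays, while the inhibitor-treated group overlapped both. The difference was 1.48-fold (-0.57 ± 0.13, adjusted p = 0.0208), a call lost without MTAP- replicates 1 or 2 or MTAP+ replicate 3 (adjusted p 0.0528 to 0.0651). With inhibitor HMOX1 differed from MTAP+ cells by 0.27 ± 0.13 (adjusted p = 0.223), higher in 3 of 3 same-numbered pairs, and from MTAP- cells by -0.30 ± 0.13 (adjusted p = 0.117; 0.0401 without inhibitor-treated replicate 1). With the ACTB covariate the difference between MTAP+ and MTAP- cells was -0.56 (adjusted p = 0.116).

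GCLM and GCLC encode the modifier and the catalytic subunit of glutamate-cysteine ligase, the first enzyme of glutathione synthesis. GCLM was highest in MTAP- cells and lowest with inhibitor. On 203925_at its signals were 10.23, 10.41 and 10.29 in MTAP- cells, 9.73, 10.02 and 9.34 in MTAP+ cells and 9.27, 9.25 and 8.92 with inhibitor, and no 2 groups overlapped. On 236140_at they were 9.97, 9.49 and 9.02, then 8.79, 9.62 and 8.72, then 8.40, 8.75 and 8.77. That probe set varied more, MTAP+ replicate 2 lay above 2 of the MTAP- arrays, and the inhibitor-treated arrays were all below the MTAP- arrays.

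The largest GCLM difference was between inhibitor-treated and MTAP- cells, 2.23-fold lower on 203925_at (-1.16 ± 0.17, adjusted p = 0.00126) and 1.80-fold on 236140_at (-0.85 ± 0.28, adjusted p = 0.0466). The first stayed called with any 1 array left out. The second was lost without MTAP- replicates 1 or 2 or any 1 inhibitor-treated array (0.0812 to 0.145). Between MTAP+ and MTAP- cells 203925_at was 1.53-fold lower (-0.61 ± 0.17, adjusted p = 0.0433), a call that held without MTAP+ replicate 2 but was lost without any 1 of the other 8 arrays (0.0512 to 0.118). With the ACTB covariate this difference was -0.78 (adjusted p = 0.0735), with only the 2 groups fitted its adjusted p was 0.0812, and on 236140_at it was -0.45 ± 0.28 without the covariate (adjusted p = 0.309). With inhibitor against MTAP+ cells 203925_at differed by -0.55 ± 0.17 (adjusted p = 0.0753), which passed with the replicate number as a block (0.0282) and without MTAP+ replicate 3 (0.0211), and 236140_at by -0.40 ± 0.28 (adjusted p = 0.401).

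GCLC was lower in inhibitor-treated than in MTAP- cells on 202923_s_at, with signals of 8.36, 8.41 and 8.56 in MTAP- cells, 8.01, 8.27 and 8.08 in MTAP+ cells and 7.95, 8.16 and 7.82 with inhibitor. The MTAP- arrays all lay above the other groups, which overlapped each other. The difference was 1.39-fold (-0.47 ± 0.12, adjusted p = 0.0175) and was lost without MTAP- replicate 3 or inhibitor-treated replicates 1 or 3 (0.0567 to 0.0734). MTAP+ cells differed from MTAP- cells by -0.32 ± 0.12 (adjusted p = 0.105), and inhibitor-treated from MTAP+ cells by -0.15 (adjusted p = 0.483). The dimmer probe set 202922_at, at 6.78 to 7.52 on the 9 arrays, was not called in any comparison, and its difference between inhibitor-treated and MTAP- cells was -0.28 (adjusted p = 0.166).

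**Figure D2:**
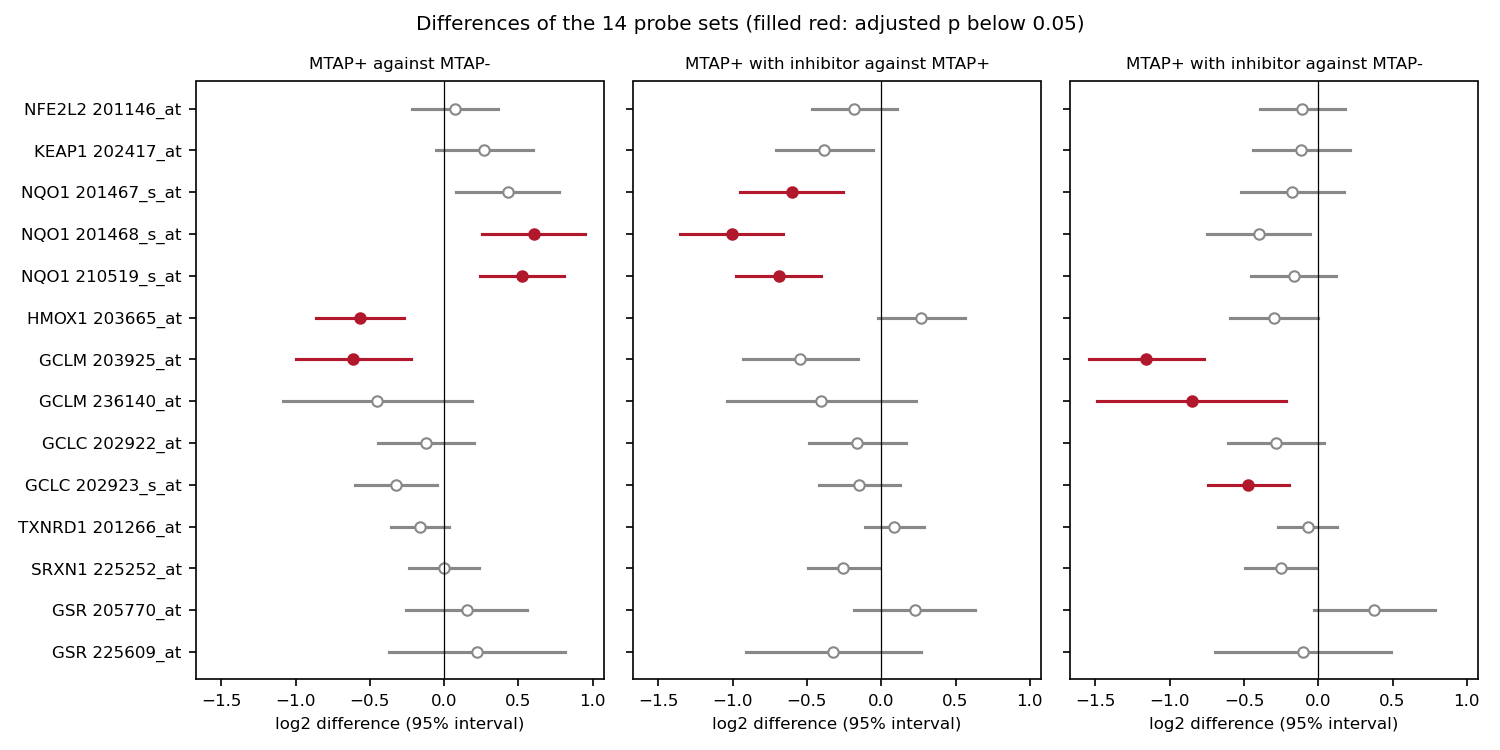
Log2 difference with its 95% interval for each of the 14 member probe sets, 1 panel for each of the 3 comparisons; filled points passed the test. NQO1 lies to the right of 0 in MTAP+ against MTAP- cells and to the left with inhibitor, and GCLM lies to the left of 0 in all 3 panels.

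The thioredoxin arm and glutathione reductase gave no call. TXNRD1, the reductase of cytosolic thioredoxin, was bright and even, with 12.69, 12.74 and 12.63 in MTAP- cells, 12.46, 12.57 and 12.54 in MTAP+ cells and 12.62, 12.63 and 12.59 with inhibitor. The MTAP+ arrays were all below those of both other groups, yet the differences were small, at -0.16 ± 0.09 against MTAP- cells (adjusted p = 0.238) and 0.09 ± 0.09 for inhibitor-treated against MTAP+ cells (adjusted p = 0.564). SRXN1, sulfiredoxin, which restores over-oxidised peroxiredoxins, was at 9.84, 9.86 and 9.86, then 10.00, 9.83 and 9.73, then 9.73, 9.53 and 9.54. Its mean in MTAP+ cells equalled that in MTAP- cells (95% interval of the difference -0.24 to 0.24). With inhibitor it was -0.25 ± 0.11 from each of the other groups (adjusted p = 0.157 against MTAP+ and 0.0969 against MTAP- cells), and the inhibitor-treated arrays lay below all MTAP- arrays.

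GSR, which returns oxidised glutathione to its reduced form, was read by 2 probe sets that went apart. On 205770_at the signals were 7.72, 7.91 and 7.39, then 7.93, 8.04 and 7.49, then 8.09, 8.21 and 7.84. On 225609_at they were 8.88, 8.67 and 8.34, then 9.27, 8.41 and 8.88, then 8.97, 8.10 and 8.53. The groups overlapped on both probe sets in every comparison. For inhibitor-treated against MTAP+ cells the probe sets gave 0.22 and -0.32 (adjusted p = 0.470 and 0.476), so no direction is given for GSR. For inhibitor-treated against MTAP- cells 205770_at gave 0.38 ± 0.18 (adjusted p = 0.146). This difference passed with the replicate number as a block (adjusted p = 0.0142). Deviations of same-numbered arrays correlated weakly in that comparison (-0.006 to 0.200), so the block has little ground there.

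The wider pathway was read from 7 lists of 72 other genes, of which 56 had values, each through its probe set of highest mean. Between MTAP+ and MTAP- cells 5 were higher and 6 lower (19.6%, against 15.1% of all genes, 9.84% higher and 5.31% lower). The quinone, carbonyl and xenobiotic enzymes held 3 higher of 7 and 0 lower, with a median difference of 0.53 where that of all genes was 0.02. EPHX1, microsomal epoxide hydrolase, rose from 7.82, 7.83 and 7.75 in MTAP- cells to 8.76, 8.75 and 8.87 in MTAP+ cells. These groups stood far apart, and the difference was 1.99-fold (0.99 ± 0.09, adjusted p = 3.81e-04). CBR3, a carbonyl reductase, was higher by 0.56 ± 0.16 (adjusted p = 0.0421), and the last of the 3 called was AKR1C3, an aldo-keto reductase. Its signals were 6.44, 6.30 and 5.78 in MTAP- cells, 7.13, 6.51 and 7.24 in MTAP+ cells and 6.80, 6.56 and 6.57 with inhibitor. Every deposited probe set reaches 6.64 on at least 3 arrays, and AKR1C3 does so on 2 MTAP+ and 1 inhibitor-treated array and on 0 MTAP- arrays. It thus entered the table through the groups where it is high and had to differ, so its call supports nothing, and without it 2 genes of the list were higher. The list median of 0.53 and the counts and shares over the 56 genes, here and below, still include AKR1C3. With values under that level raised to it, its difference was 0.36 (adjusted p = 0.127).

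The glutathione list held 5 lower of 15 and 0 higher in the same comparison, with a median of -0.03. The leading members were the mu-class glutathione transferases GSTM3 (-0.65 ± 0.15, adjusted p = 0.0198), GSTM2 (-0.64 ± 0.10, adjusted p = 0.00318) and GSTM1 (-0.47 ± 0.12, adjusted p = 0.0302). These are close paralogs, and the probe sets of GSTM1, GSTM2 and GSTM3 are all of a kind that can bind several transcripts. They may therefore not be separate readings. Of 6 heme and iron genes 1 was lower, HMOX2, the constitutive heme oxygenase (-0.55 ± 0.14, adjusted p = 0.0317). Of 12 regulators 1 was higher, NFE2L1, a relative of NRF2 that controls proteasome genes (0.50 ± 0.12, adjusted p = 0.0221), and of 3 superoxide and hydrogen peroxide enzymes 1, catalase, CAT (0.68 ± 0.13, adjusted p = 0.0102). The thioredoxin list (8 genes) and the NADPH list (5 genes) gave 0 calls by limma, with 2 and 3 at an unadjusted p under 0.05. Their brightest genes gave -0.07 for PRDX1, a peroxiredoxin (adjusted p = 0.669), and 0.24 for TKT, transketolase (adjusted p = 0.319).

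Of these single genes EPHX1, GSTM2 and CAT stayed called in this comparison with any 1 array left out. GSTM3 was lost without MTAP- replicates 1 or 3 (0.0585 to 0.0701). HMOX2 was lost without MTAP- replicates 1 or 2 or MTAP+ replicates 2 or 3 (0.0614 to 0.0909), GSTM1 without any 1 MTAP- array or MTAP+ replicates 2 or 3 (0.0515 to 0.0956), and NFE2L1 without MTAP- replicates 2 or 3 or MTAP+ replicate 1 (0.0547 to 0.0772). CBR3 was lost without any 1 of 7 arrays, all but MTAP+ replicate 2 and inhibitor-treated replicate 1 (0.0562 to 0.121). With the ACTB covariate EPHX1, GSTM2 and HMOX2 stayed called, while the adjusted p was 0.147 for GSTM3, 0.124 for GSTM1, 0.111 for CBR3, 0.186 for NFE2L1 and 0.0508 for CAT. That setting called 4 of the 56 genes (7.14%), against 5.31% of all genes. CBR3 also lost its call when arrays were centred (0.068) or renormalised by quantiles (0.0683). With only the 2 groups fitted 5 of 56 were called (8.93%, against 7.84% of all genes), and the calls of GSTM3 (0.0578), GSTM1 (0.064), HMOX2 (0.077), CBR3 (0.0797), NFE2L1 (0.0543) and AKR1C3 were lost. With the replicate number as a block 7 were higher and 9 lower (28.6%, against 21.6% of all genes), the 11 called before and MAFF, SLC3A2, GSS, PGD and CBR1.

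With inhibitor against MTAP+ cells 0 pathway genes were higher and 3 lower (5.36%, against 10.6% of all genes, 4.63% higher and 5.95% lower). At an unadjusted p under 0.05 there were 16, a count not to be set against these shares of calls. CBR3, whose signals in MTAP+ cells were 9.19, 8.64 and 8.89, stood at 8.36, 8.03 and 8.06 with inhibitor and at 8.43, 8.21 and 8.41 in MTAP- cells. The inhibitor-treated arrays lay below all MTAP+ arrays, by 1.69-fold (-0.76 ± 0.16, adjusted p = 0.0173). CAT went from 10.58, 10.26 and 10.57 to 10.09, 9.73 and 9.72 (-0.62 ± 0.13, adjusted p = 0.0204), and DPP3, a peptidase that competes with NRF2 for KEAP1, was lower by 1.37-fold (-0.45 ± 0.10, adjusted p = 0.0262). CBR3 lost its call without MTAP+ replicate 1 or inhibitor-treated replicates 2 or 3 (0.0504 to 0.0815), CAT without MTAP+ replicates 1 or 3 or inhibitor-treated replicates 2 or 3 (0.0502 to 0.0942), and DPP3 without MTAP+ replicates 1 or 2 or inhibitor-treated replicates 2 or 3 (0.0508 to 0.117). With only the 2 groups fitted CBR3 alone stayed called (1.79%, against 6.97% of all genes), with CAT at 0.0516 and DPP3 at 0.0553. With the replicate number as a block 2 genes were higher and 5 lower (12.5%, against 16.0% of all genes), the 3 called before and GSK3B, PGAM5, MAFF and PGD. The glutathione (15 genes), thioredoxin (8), NADPH (5) and heme (6) lists gave 0 calls by limma, with 2, 3, 2 and 0 at an unadjusted p under 0.05.

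Among the brightest members of those lists, GSTO1, an omega-class glutathione transferase, differed by 0.13 (adjusted p = 0.515), FTL, the ferritin light chain, by -0.04 (adjusted p = 0.851) and PRDX1 by -0.16 (adjusted p = 0.336). The probe sets of TKT disagreed: the brightest gave 0.35 (adjusted p = 0.182), while 228205_at gave -0.85 (adjusted p = 0.00516).

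Between inhibitor-treated and MTAP- cells 12 pathway genes were higher and 11 lower (41.1%, against 32.2% of all genes, 17.3% higher and 14.9% lower). EPHX1 was 2.08-fold higher (1.06 ± 0.09, adjusted p = 1.07e-04) and PIR, the iron-binding protein pirin, 1.67-fold (0.74 ± 0.16, adjusted p = 0.00726), the 2 calls among 7 quinone, carbonyl and xenobiotic enzymes. Of 12 regulators 4 were higher and 2 lower. BACH1, a repressor that occupies NRF2 sites and is released by heme, was at 7.66, 8.12 and 7.67 in MTAP- cells and at 8.69, 8.81 and 9.19 with inhibitor, and the groups did not overlap (2.11-fold, adjusted p = 0.0288). SQSTM1, the autophagy receptor p62, which binds KEAP1, was higher by 0.50 ± 0.11 (adjusted p = 0.00705), and PGAM5, a mitochondrial phosphatase that KEAP1 also binds, lower by 0.71 on the log2 scale (-0.71 ± 0.15, adjusted p = 0.00626). BACH1 was lost without MTAP- replicates 1 or 3 or inhibitor-treated replicates 2 or 3 (0.0593 to 0.0998), and with the ACTB covariate (0.0693). That covariate left 14 of the 56 genes called in this comparison (25.0%, against 23.3% of all genes).

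In the same comparison the glutathione list had 3 higher and 5 lower of 15, led by GSTM2 (-0.79 ± 0.10, adjusted p = 5.02e-04), GSTM3 (-0.70 ± 0.15, adjusted p = 0.00697) and GSTM1 (-0.57 ± 0.12, adjusted p = 0.0068). The peroxiredoxins PRDX3, of mitochondria, and PRDX4, of the endoplasmic reticulum, were the 2 lower of 8 thioredoxin genes (-0.54 ± 0.11, adjusted p = 0.00602, and -0.52 ± 0.11, adjusted p = 0.00724). Of 5 NADPH genes 3 were higher and 1 lower, with TKT at 0.59 ± 0.16 (adjusted p = 0.0182), malic enzyme ME1 at 0.40 ± 0.10 (adjusted p = 0.0155) and transaldolase TALDO1 at -0.44 ± 0.14 (adjusted p = 0.0352). TKT is counted as higher by its brightest probe set, but its probe sets disagreed here too. Its 208699_x_at was higher (0.82, adjusted p = 0.00704) and its 228205_at lower (-0.55, adjusted p = 0.0102). HMOX2 was the 1 lower of 6 heme and iron genes (-0.62 ± 0.14, adjusted p = 0.00986). The 3 superoxide and hydrogen peroxide enzymes gave 0 calls by limma and 0 at an unadjusted p under 0.05, SOD1, cytosolic superoxide dismutase, at 0.02 (adjusted p = 0.917). TKT lost its call as the mean of its probe sets (0.0947) and without MTAP- replicate 3 or inhibitor-treated replicates 1 or 3 (0.0621 to 0.0651), TALDO1 without any 1 MTAP- array or inhibitor-treated replicates 2 or 3 (0.0675 to 0.111), and ME1 without inhibitor-treated replicates 1 or 2 (0.0534 to 0.0577). With the ACTB covariate TALDO1 had an adjusted p of 0.13 and ME1 of 0.061, while the other called genes named here for this comparison, BACH1 apart, stayed called.

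**Figure D3:**
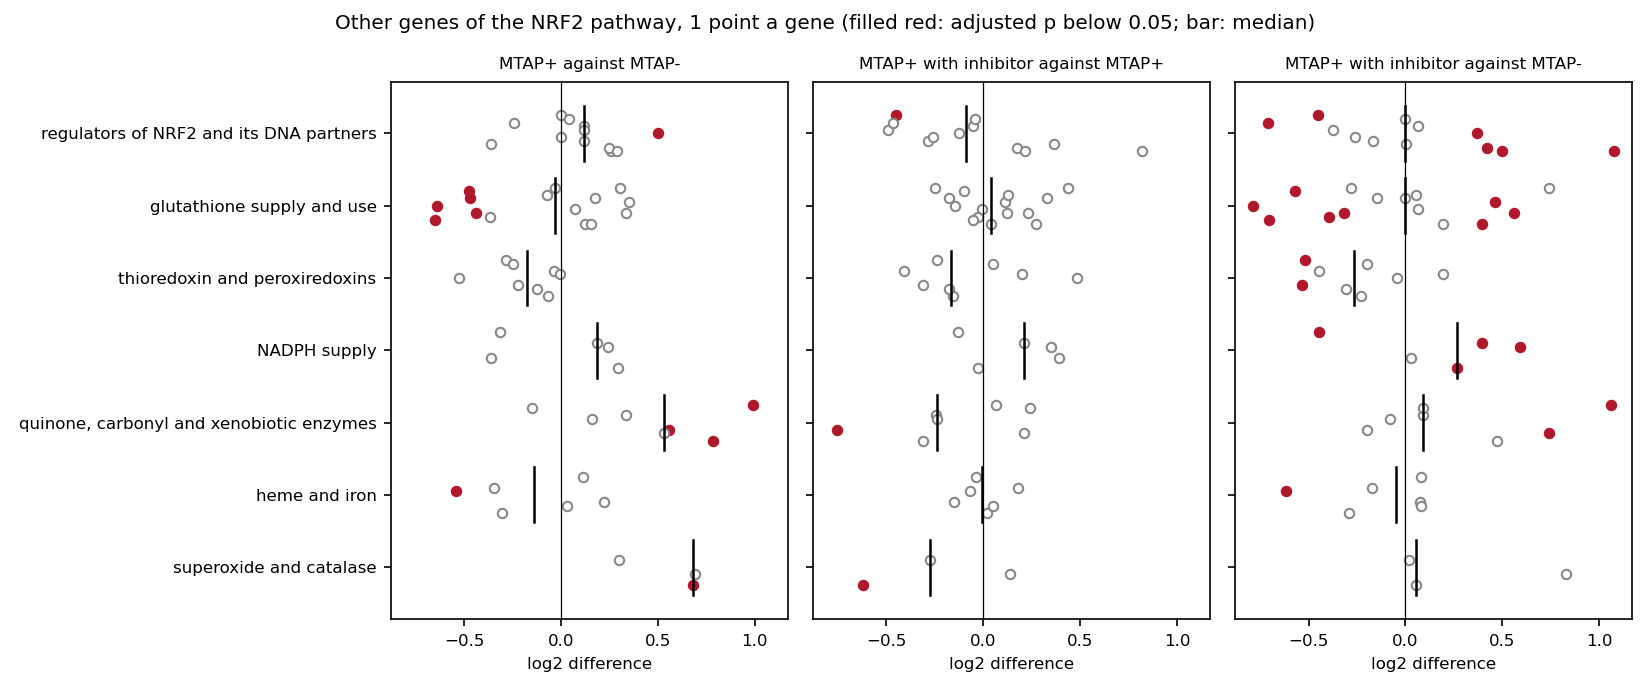
Log2 difference of each of the 56 other pathway genes, by list and comparison; filled points passed the test. EPHX1 at 0.99 and the GSTM genes down to -0.65 mark the ends in MTAP+ against MTAP- cells.

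Genes whose pattern over the 9 arrays was nearest to a member were found among the 9453 genes by the root-mean-square difference of log2 values, each centred on its own mean. This is a description over 9 arrays that share the groups, with no test. Nearest to NQO1, whose own spread on this measure was 0.318, were CCDC97 at 0.0722, TUBA1A at 0.0813 and the carbonyl reductase CBR3 at 0.0814. Nearest to GCLM, with a spread of 0.510, were CORO1C at 0.116, SPAG1 at 0.127 and POLE2 at 0.129. Nearest to HMOX1, with a spread of 0.265, were ZMIZ2 at 0.0889, BICD1 at 0.0997 and KLHL7 at 0.1003. CBR3 is the neighbour that also stands in the pathway lists.

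**Figure D4:**
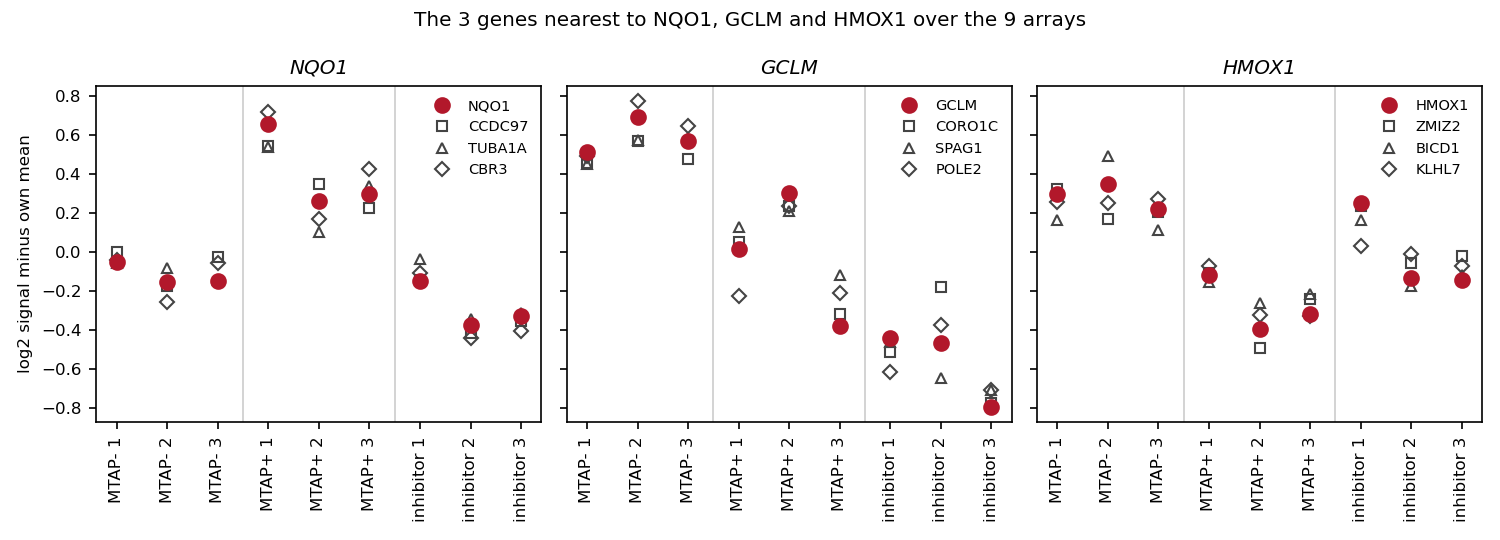
Log2 signal minus its own mean over the 9 arrays for NQO1, GCLM and HMOX1 (filled) and the 3 nearest genes of each (open shapes). The open shapes follow each filled point, with NQO1 highest in MTAP+ cells, GCLM lowest with inhibitor and HMOX1 lowest in MTAP+ cells.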

How the data were processed

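The labels give 3 groups of 3 HT1080 arrays each. The deposited log2 values come from RMA, which the authors ran per the submitters' processing notes. RMA subtracts background, equalises the arrays' distributions and summarises probes. Over the probe sets tested, array medians still differed, at 8.24 to 8.33 in MTAP- cells and 8.35 to 8.38 in the other groups. Its version and settings were not given in the sources used here. Of 54675 probe sets 37201 had no value and 17474 a value on every array, and each of these reached 6.64, log2 of 100, on at least 3 arrays. Without the 8 control probe sets, 17466 were tested, 15485 of them with 1 gene symbol in the platform annotation, 841 with several and 1140 with none. The array format, and not a read depth, sets the precision: with 3 arrays a group the median SE was 0.140.

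A linear model with the 3 groups was fitted to all 9 arrays with limma 3.58.1 (eBayes) in R 4.3.3, with Benjamini-Hochberg adjustment over all probe sets within a comparison and a threshold of 0.05. The procedure was tested on simulated data. Named genes are the members, the 3 called genes of each list with the largest change (or its brightest where none was called), and the 3 nearest genes of 3 members. The members and lists were chosen with earlier results of these data known.

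Deviations from group means of same-numbered arrays correlated at 0.225 to 0.284 between MTAP+ and MTAP- cells and at 0.321 to 0.702 between inhibitor-treated and MTAP+ cells. The main fit has no block and leaves this pairing out. For these comparisons the blocked value is given as an alternative where it changes a call. Alternatives tried were a block, centring, quantile normalisation, array weights, the ACTB covariate, only the 2 groups compared, filters on dim or multi-transcript probe sets, gene-level summaries and leaving out each array.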

Additional observations from a re-analysis of the deposited data

How the results depend on the processing

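Over 837 alternative values of the 42 member results, 42 lost and 12 gained a call and 783 stayed on the same side of the threshold. Only the 10 called results could lose a call, so all the losses fell on them, and 837 is not their base. No called difference turned its sign, but 13 values of 6 uncalled differences did: SRXN1, NFE2L2, GCLC 202922_at and GSR 205770_at between MTAP+ and MTAP- cells, and NFE2L2 and GSR 225609_at between inhibitor-treated and MTAP- cells. Of 10 called results 8 lost the call somewhere. The exceptions were NQO1 201468_s_at with inhibitor against MTAP+ cells (18 alternatives) and GCLM 203925_at in inhibitor-treated against MTAP- cells (21 alternatives). That NQO1 probe set was not among those tested in the multi-transcript filter or the gene-level summaries, so it could not lose its call there. Leaving out 1 array gave 0 to 4 member calls between MTAP+ and MTAP- cells (4 in the report), 1 to 4 with inhibitor against MTAP+ cells (3) and 1 to 4 against MTAP- cells (3), where 8.35% to 16.1%, 2.59% to 10.5% and 20.4% to 34.5% of all probe sets were called. Between MTAP+ and MTAP- cells the count was 0 with the ACTB covariate, where limma called 4.87% of all probe sets. At an unadjusted p under 0.05 there were 5 members. With only the 2 groups compared the count was 1 (7.93%). It was 2 of 9 genes with the mean of a gene's probe sets (19.8% of all genes). Without the probe sets that may bind more than 1 transcript it was 2 of 10 (15.6%). With inhibitor against MTAP+ cells the count was 1 of 9 genes with the mean of probe sets (13.8% of all genes). It was 1 of 9 with the brightest probe set above a filter (14.9%). Without the probe sets that may bind more than 1 transcript limma called 0 of 10, against 12.9% of all. All probe sets of NQO1 are of that kind. At an unadjusted p under 0.05 there were 3 of the 10. With the replicate number as a block the counts were 5, 4 and 5, against 21.6%, 15.6% and 37.2% of all probe sets. In the last comparison the pairing was weaker, as only 2 of its 6 arrays correlated best with their own number (-0.006 to 0.200). Other pathway genes called ranged from 4 to 17, 0 to 8 and 9 to 28 (11, 3 and 23 of 56 in the report). The highest counts, 17, 8 and 28 of 56, came with array weights, where 17.7%, 14.1% and 37.7% of all probe sets were called. The lowest in the first was 4 of 56 with the ACTB covariate (4.87%). In the second it was 0 of 56 without MTAP+ replicate 1 or inhibitor-treated replicates 2 or 3 (2.59% to 5.23%). In the third it was 9 of only 28 genes, without the probe sets that may bind more than 1 transcript (32.9%). Array number and signal near the deposited minimum limit what can be seen, and the cause of these shifts was not tested.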

Other observations

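GCLC probe set 202922_at is listed at 7.0901 on MTAP+ replicates 1 and 2 and on inhibitor-treated replicate 3.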
